A study of Mus musculus with 10 samples.

Results

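Fatty acid binding proteins are small cytosolic carriers of long-chain fatty acids, and 5 of their genes (Fabp1, Fabp3, Fabp4, Fabp5 and Fabp7) were followed here in mouse alveolar macrophages, the phagocytes that live on the inner surface of the lung. The 5 genes were taken by their symbols from a table of 26173 genes, in which each symbol matched 1 Entrez gene, and the values of a gene's transcripts were summed. Values are FPKM, fragment numbers scaled to transcript length and to library depth. RNA sequencing covered 10 samples of C57BL/6 mice labelled female and 16 weeks old, with 2 samples in each of 5 groups. Per the labels, the study asked what loss of Bach2, a transcription repressor of immune cells, does to these macrophages.

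In the conditional line Bach2 is floxed and Cre is driven by CD4, a driver used to delete genes in T cells. Whether the macrophages themselves lost Bach2 could not be checked, because Bach2 was at most 0.0761 FPKM in every run. Knockout mice of this line gave an aberrant-marker group, with surface markers unlike those of control mice, and a normal-marker group, with surface markers like those of control mice. The conditional control is labelled as control mice of the same line, without saying whether they carry Cre. The remaining groups were mice with a germline knockout of Bach2 and wild-type mice. How many mice stand behind a sample is not stated.

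The pair of samples in each group differed about as little as repeat sequencing of 1 library would, with a correlation of 0.996 to 0.999 on the log2(FPKM + 1) scale, against 0.845 to 0.929 across groups. Among genes at 1 to 3 FPKM in a sample, 0.0942% to 0.221% were listed at 0 in the other sample of its group, against 11.2% to 26.1% in samples of other groups. They were therefore treated as 2 runs of 1 library per group, means are over runs, and differences between groups carry no p-value and no check in a second library. The steps between the lowest values put the depth at about 7.70 to 9.47 M fragments per run, an approximate figure because it rests on annotated transcript lengths. The call rule asked for a 4-fold difference of FPKM + 1 between 2 libraries, met by their means and by every pairing of single runs, and for the higher library to hold 20 FPKM or more. Libraries of the conditional line held Xist, the RNA that coats the silenced X chromosome in females, at 3.72 to 10.0 FPKM, whereas the germline knockout and wild-type libraries held at most 0.00472 FPKM despite the female label.

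Of 8 markers of alveolar macrophages, all were at 1 FPKM or more in the normal-marker, conditional control and wild-type libraries, and 6 were in the aberrant-marker and germline knockout libraries. Siglec5, the entry of the receptor Siglec-F, was at 0.0526 and 0.215 FPKM in the aberrant-marker runs and at 199 and 194 FPKM in the conditional control runs. It was at 0 and 0.0493 FPKM in the germline knockout runs and at 146 and 156 FPKM in the wild-type runs. The aberrant-marker and germline knockout libraries thus lacked a defining marker of their labelled cell type. In the aberrant-marker library the scavenger receptor gene Marco averaged 0.258 FPKM against 224 FPKM in the conditional control, Ear1 2.27 against 966, Krt79 13.8 against 477, Car4 43.3 against 308 and Itgax 124 against 253. Marco averaged 13.5 FPKM in the germline knockout against 339 FPKM in the wild type, Ear1 0.964 against 1055, Krt79 4.20 against 369.6, Car4 190.2 against 544 and Itgax 365 against 289. Chil3, a chitinase-like protein abundant in alveolar macrophages, averaged 8291 FPKM in the aberrant-marker and 27735 FPKM in the normal-marker library against 9166 FPKM in the conditional control, and 46574 FPKM in the germline knockout against 9278 FPKM in the wild type. The part of these differences in the levels of the carriers was not tested.

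As background, each protein of the family folds into a barrel that shields a fatty acid from water and carries it to membranes, to enzymes or to the nucleus, where several members hand ligands to the peroxisome proliferator-activated receptors (PPARs). The members are named after tissues in which they were described: Fabp1 after liver, Fabp3 after heart, Fabp4 after adipose tissue, Fabp5 after epidermis and Fabp7 after brain. Alveolar macrophages take up and break down surfactant lipid, and Pparg is required for them to form. Macrophages of many tissues carry Fabp4 and Fabp5.

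In the RefSeq annotation of GRCm38.p6, Fabp4 and Fabp5 lie on chromosome 3 together with Pmp2, Fabp9 and Fabp12, whereas Fabp3, Fabp1 and Fabp7 lie on chromosomes 4, 6 and 10. The 250 bases before the start of the gene are shown for Fabp1, Fabp7 and Fabp3, the 3 members with a promoter window available. Fabp4 and Fabp5 had no window and were not searched. Fabp1 was present in both control libraries and nearly absent in the germline knockout, and Fabp7 and Fabp3 were listed at 0 in both controls. The sequences are from RefSeq on GRCm38.p6, all 3 on the plus strand, at chr6:71199629-71199878 for Fabp1, chr10:57784673-57784922 for Fabp7 and chr4:130308488-130308737 for Fabp3. Capitals mark every match, on either strand, of the spaced repeat AGGNCANAGGNCA bound by PPAR and RXR partners and of the TATA motif TATAAA, and would mark TGAGTCA, the core bound by Bach and AP-1 factors.
Fabp1: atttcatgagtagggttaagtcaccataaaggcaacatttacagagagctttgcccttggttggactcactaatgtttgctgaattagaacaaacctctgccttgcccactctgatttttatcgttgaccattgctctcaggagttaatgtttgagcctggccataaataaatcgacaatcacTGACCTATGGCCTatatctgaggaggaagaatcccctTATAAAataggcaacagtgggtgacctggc
Fabp7: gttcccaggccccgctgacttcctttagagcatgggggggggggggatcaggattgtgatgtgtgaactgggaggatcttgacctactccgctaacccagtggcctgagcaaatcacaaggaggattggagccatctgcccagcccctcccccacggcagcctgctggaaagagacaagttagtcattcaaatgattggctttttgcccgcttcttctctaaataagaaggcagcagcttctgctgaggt
Fabp3: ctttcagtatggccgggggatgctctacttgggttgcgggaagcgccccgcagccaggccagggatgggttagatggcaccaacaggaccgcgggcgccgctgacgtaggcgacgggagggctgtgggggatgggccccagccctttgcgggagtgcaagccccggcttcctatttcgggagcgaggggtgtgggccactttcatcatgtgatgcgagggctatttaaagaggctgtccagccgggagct
The Fabp1 window held the repeat on the minus strand, 67 to 55 bases before the start, and a TATA motif 30 to 25 bases before it. The core GAGGAA, bound by the macrophage factor PU.1, was also searched for and lay 45 to 40 bases before the start, left in lower case. The repeat was found in 0.338% of 32851 promoter windows of the same length, the TATA motif in 12.4%, the PU.1 core in 23.3% and the Bach core in 4.46%, and the motifs do not overlap in the Fabp1 window. A peroxisome proliferator response element is known in the proximal promoter of the rat gene. Of 5 other genes of the family with a window in the table, 0 held the repeat. The Fabp7 and Fabp3 windows held none of the 4 motifs, which says only that these letters are not there.

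Fabp1 was a major carrier of control cells and was close to absent from the germline knockout. It was at 9.05 and 10.1 FPKM in the aberrant-marker runs, 251 and 276 FPKM in the normal-marker runs and 500.1 and 514 FPKM in the conditional control runs. It was at 0 and 0.355 FPKM in the germline knockout runs and 778 and 796 FPKM in the wild-type runs. The order from the highest was wild type, conditional control, normal-marker, aberrant-marker and germline knockout. With 1 fragment on its transcript worth about 0.191 to 0.235 FPKM, the value of the germline knockout library rested on about 2 fragments in 1 run, while each wild-type run held about 3981 and 3893. By level, Fabp1 ranked 87 among all genes in the wild type and 163 in the conditional control.

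Fabp5, the epidermal carrier that also delivers ligand to Ppard, stood in nearly the reverse order. It was at 1357 and 1353 FPKM in the aberrant-marker runs, 837 and 843 FPKM in the normal-marker runs and 335 and 331 FPKM in the conditional control runs. It was at 1519 and 1534 FPKM in the germline knockout runs and 328 and 342 FPKM in the wild-type runs. The 2 control libraries were the lowest, with runs that overlapped, and all 3 knockout libraries lay above them. Fabp5 ranked 46 by level among all genes in the germline knockout and 70 in the aberrant-marker library, against 277 in the wild type and 294 in the conditional control. A single transcript, NM_010634.3, carried 98.7% to 100.0% of the gene's FPKM in every run.

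Fabp4, the adipocyte carrier and a textbook target of Pparg, was present in every library. It was at 86.7 and 80.7 FPKM in the aberrant-marker runs, 293 and 279 FPKM in the normal-marker runs and 103 and 105 FPKM in the conditional control runs. It was at 186 and 177 FPKM in the germline knockout runs and 143 and 146 FPKM in the wild-type runs. The normal-marker library was the highest and the aberrant-marker library the lowest. Its range over the 5 libraries was 1.76 on the log2(FPKM + 1) scale, the smallest of the 5 genes, against 9.39 for Fabp1.

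Fabp3 and Fabp7, the heart and brain carriers, were rare transcripts seen only in knockout libraries. Fabp3 was at 4.98 and 5.32 FPKM in the aberrant-marker runs and at 3.46 and 4.32 FPKM in the germline knockout runs, and it was listed at 0 in the normal-marker, conditional control and wild-type runs. Fabp7 was at 5.47 and 6.63 FPKM in the normal-marker runs, at 9.15 and 8.73 FPKM in the germline knockout runs and at 0.783 and 0 FPKM in the aberrant-marker runs, and it was listed at 0 in both control libraries. The germline knockout thus held both, the aberrant-marker library mainly Fabp3 and the normal-marker library Fabp7 without Fabp3. These values stand for about 24 to 36 fragments per run for Fabp3 and about 42 to 62 for Fabp7 where the gene was clearly present. From 100 pg of RNA amplified by 18 cycles of PCR, such a number of fragments can come from few molecules, and a transcript listed at 0 may have been missed.

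**Figure D1:**
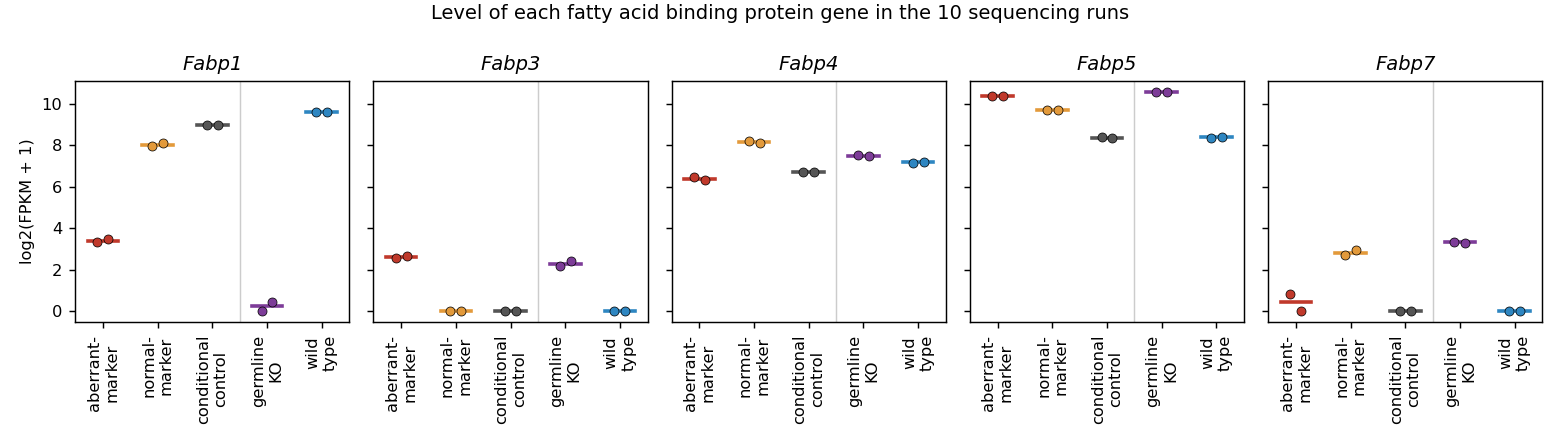
Level of the 5 genes in each run, on the log2(FPKM + 1) scale. Points are the 2 runs of a library, horizontal bars are their means, and the grey line separates the conditional line from the germline line. Fabp1 spans 9.39 log2 units over the libraries and Fabp4 1.76, and Fabp3 and Fabp7 are at 0 in both control libraries.

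Other members of the family were silent. Of 12 further intracellular lipid binding protein genes, 10 were in the table, among them the intestinal Fabp2, the ileal Fabp6, Fabp9, Fabp12, the myelin protein gene Pmp2, and the retinoid carriers Rbp2, Rbp7, Crabp1 and Crabp2. None reached the 1 FPKM needed to enter the comparison. The 9 named genes were listed at 0 in every run. Transcripts of Pmp2, Fabp9 and Fabp12, the neighbours of Fabp4 and Fabp5 on chromosome 3, were thus not detectable at this depth.

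Summed over the 5 genes, the family stood at 1454 FPKM in aberrant-marker macrophages, 1396 in normal-marker macrophages and 944 in the conditional control. It stood at 1721 FPKM in the germline knockout and 1266 in the wild type. Each knockout library held more family transcript than its own control. Fabp1 made up 0.657% of the sum in the aberrant-marker library and 18.9% in the normal-marker library, against 53.7% in the conditional control, and 0.0103% in the germline knockout against 62.1% in the wild type. Fabp5 made up 93.2% in the aberrant-marker library and 60.2% in the normal-marker library, against 35.3% in the conditional control, and 88.7% in the germline knockout against 26.4% in the wild type. Fabp4 made up 5.76% in the aberrant-marker library and 20.5% in the normal-marker library, against 11.0% in the conditional control, and 10.5% in the germline knockout against 11.4% in the wild type. The leading carrier was thus Fabp5 in all 3 knockout libraries and Fabp1 in both controls.

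The balance of these carriers can be read within a single run, where it needs no scaling between libraries. The ratio of Fabp5 to Fabp1, both in FPKM, was 149.9 and 135 in the aberrant-marker runs and 3.34 and 3.06 in the normal-marker runs, against 0.669 and 0.643 in the conditional control runs. In the germline knockout no ratio is given, because Fabp1 was at 0 in 1 run and at about 2 fragments in the other, and in the wild-type runs it was 0.422 and 0.429. The ratio of Fabp5 to Fabp4 was 15.7 and 16.8 in the aberrant-marker runs and 2.86 and 3.02 in the normal-marker runs, against 3.25 and 3.16 in the conditional control runs. It was 8.18 and 8.65 in the germline knockout runs, against 2.29 and 2.34 in the wild-type runs. The normal-marker library therefore departed from its control in the ratio of Fabp5 to Fabp1 and held a slightly lower ratio of Fabp5 to Fabp4.

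**Figure D2:**
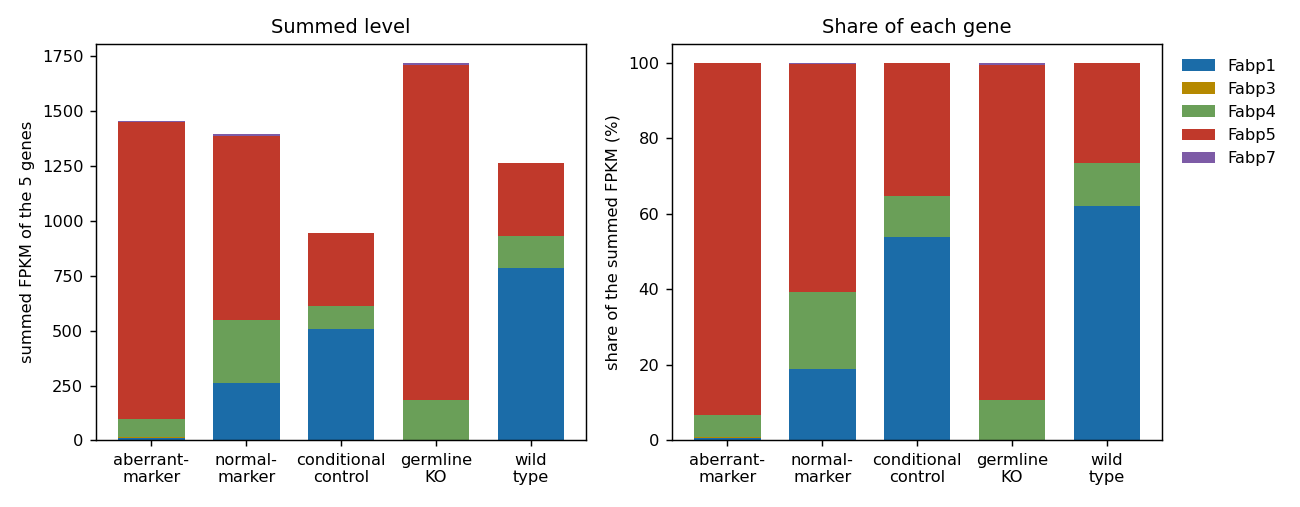
Summed FPKM of the 5 genes (left) and the share of each in that sum (right) in each library, as means of 2 runs. Fabp5 takes 93.2% of the aberrant-marker sum and 88.7% of the germline knockout sum, and Fabp1 takes 53.7% in the conditional control and 62.1% in the wild type. Fabp3 and Fabp7 are too rare to be seen clearly.

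In aberrant-marker macrophages against the conditional control, Fabp1 was called lower, with a difference of -5.59 on the log2(FPKM + 1) scale and a level 53.1-fold lower in FPKM, and Fabp5 was called higher, with a difference of 2.02. Of the 11336 genes compared, 4.09% were called higher and 3.76% lower. Fabp5 lay at the edge of the call, with differences of 2.01 to 2.03 over the choices of run. The call was lost when every column was scaled to the same total, at 1.99, and when the wild type was used as the control, where the mean difference was 2.01 but not every choice of run reached the threshold. Fabp4 differed by -0.31 and was not called. Fabp3, listed at 0 in the control, was under the floor of 20 FPKM. Its difference of 2.62 was set by the pseudocount of 1 FPKM and was 5.71 with a pseudocount of 0.1 FPKM. It was called with a floor of 5 FPKM, by which 9.68% of genes were called higher. Fabp7 was at 0.391 FPKM on average, with 1 of its runs at 0.

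Markers of other cells were also high in the aberrant-marker library. The summed FPKM of 8 dendritic cell markers was 2204 and 2239 in its runs, against 9.63 and 12.5 in the conditional control runs. Of these markers 7 were at 1 FPKM or more, against 2. Most of the sum was Ccr7, at 1542 and 1585 FPKM. Xcr1 was not among the 7 and averaged 2.09 FPKM in the conditional control. All 7 measured T cell markers were at 1 FPKM or more in the aberrant-marker library, against 1 in the conditional control (Cd2). Nearly all of the control sums of 331 and 328 FPKM came from Cd2, and the sums were 276 and 282 in the aberrant-marker runs. Cd3e and Cd3g, which define T cells, were at 0 in every other library. Of 8 markers of monocyte-derived and interstitial macrophages, 6 were at 1 FPKM or more, against 4, and they summed to 912 and 908 FPKM, against 14.5 and 14.2 FPKM. The part of these cells in the Fabp1 and Fabp5 differences was not tested. In bulk RNA, fewer cells that hold a transcript and less of it per cell cannot be told apart.

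In the germline knockout against the wild type, the same pair of genes was called. Fabp1 was called lower, with a difference of -9.39 (-11.47 with a pseudocount of 0.1 FPKM), and Fabp5 was called higher, with a difference of 2.19 and a level 4.56-fold higher in FPKM. Here 2.73% of genes were called higher and 3.36% lower. No fold is given for Fabp1, because its knockout level rests on about 2 fragments. Both calls held with the conditional control as the reference, a choice made after the data were seen, at -8.75 for Fabp1 and 2.19 for Fabp5. Fabp4 differed by 0.33 and was not called. Fabp7 and Fabp3 were at 8.94 and 3.89 FPKM on average and listed at 0 in the wild type, both under the floor. With a floor of 5 FPKM, by which 8.06% of genes were called higher, Fabp7 was called and Fabp3 was not.

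Markers of T cells and dendritic cells were fewer in the germline knockout than in the aberrant-marker library. The T cell markers Cd3e, Cd3g, Lck and Lat were at 0, and 2 of 7 reached 1 FPKM (Cd2 and Il7r), against 1 in the wild type (Cd2). Il7r was at 41.9 and 41.6 FPKM in the germline knockout runs and at most 0.0312 FPKM in the wild-type runs. Cd2 was at 25.3 and 24.5 FPKM in the germline knockout runs, against 446 and 464 FPKM in the wild-type runs. Of 8 dendritic cell markers 3 reached 1 FPKM in the germline knockout, against 1 in the wild type. They summed to 99.7 and 97.5 FPKM, against 15.7 and 10.1 FPKM. Most of the germline knockout sum was Ccr7, at 71.4 and 71.7 FPKM, while Flt3 averaged 0.667 FPKM, Zbtb46 0.0113 and Cd209a 0. Of 8 markers of monocyte-derived and interstitial macrophages, 6 reached 1 FPKM in the germline knockout and 0 in the wild type, where 5 were at exactly 0, with sums of 391 and 386 FPKM in the germline knockout. Their part in the differences was not tested. Endothelial cells and adipocytes, which carry much Fabp4, left little trace in any library. Endothelial markers summed to at most 7.12 FPKM in a run, which was a germline knockout run. Pecam1 was at 5.39 and 4.63 FPKM and Kdr at 1.73 and 1.55 FPKM in the germline knockout runs, and both were at 0 in the wild-type runs. Cdh5, Cldn5, Tie1 and Emcn were at 0 in all 5 libraries. The adipocyte markers Adipoq, Cidea, Lep and Cfd were also at 0 in all 5 (Plin1 reached 10.7 FPKM in the wild type). The neural markers Sox10 and S100b, of tissues that carry Fabp7, were at 0 in every library, and Mbp was at 1.33 and 1.91 FPKM in the germline knockout runs, against 13.4 and 15.2 FPKM in the wild-type runs. B cell markers were at 0 in every library. Lung epithelial markers summed to 73.5 to 186 FPKM per run, with Sftpc, Sftpb, Sftpa1, Krt8 and Krt18 at 0 in every library, and neutrophil markers to 10.9 to 77.5 FPKM.

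In normal-marker macrophages against the conditional control, 0 of the 5 genes were called, where 0.935% of all genes were called higher and 0.838% lower. Fabp5 differed by 1.33 and Fabp4 by 1.45, which are 2.53-fold and 2.76-fold higher in FPKM. Both passed a 2-fold rule, by which 3.34% of genes were called higher. Fabp1 differed by -0.94 and did not pass it, its level being 1.93-fold lower in FPKM. Fabp7 stood at 6.05 FPKM on average against a control listed at 0, with a difference of 2.82 (5.94 with a pseudocount of 0.1 FPKM), and was called with the floor of 5 FPKM, by which 4.32% of genes were called higher. All 8 alveolar macrophage markers were at 1 FPKM or more in both libraries, but their levels differed. Siglec5 averaged 94.1 FPKM in the normal-marker library against 197 FPKM in the conditional control, Ear1 476 against 966, Krt79 205 against 477 and Marco 168 against 224. Higher in the normal-marker library were Chil3, Car4 (1123 against 308), Itgax (296 against 253) and Pparg (147 against 95.3). T cell markers other than Cd2 were all under 1 FPKM in the normal-marker library. Monocyte-derived and interstitial macrophage markers summed to 39.2 and 45.4 FPKM, against 14.5 and 14.2 FPKM in the conditional control, with C1qa, Cx3cr1 and Itgam at 0. The part of these cells in the differences was not tested.

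Between the fractions of the conditional knockout, aberrant-marker minus normal-marker, 1 of the 5 genes was called by the 4-fold rule. It was Fabp1, lower by 27.5-fold in FPKM, with a difference of -4.65, where 3.26% of genes were called lower and 4.02% higher. Fabp4 differed by -1.76, a level 3.42-fold lower, and passed only the 2-fold rule, by which 8.19% of genes were called lower. Fabp5 differed by 0.69, a level 1.61-fold higher, and passed neither. Fabp3 was at 5.15 FPKM on average in the aberrant-marker library and listed at 0 in the normal-marker library, and Fabp7 was at 0.391 and 6.05 FPKM in them. With a floor of 5 FPKM, by which 10.3% of genes were called higher, Fabp3 was called.

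The wild type against the conditional control shows how far control libraries of different lines stood apart. These libraries also differed in Xist, at 3.72 and 3.78 FPKM in the conditional control runs and at most 0.00472 FPKM in the wild-type runs. None of the 5 genes was called, at 0.935% of genes called higher and 1.17% lower. Fabp1 differed by 0.63 and Fabp4 by 0.47, both higher in the wild type. Fabp5 differed by 0.01, with runs that overlapped, and Fabp3 and Fabp7 were listed at 0 in both. Over all 11336 genes the median absolute difference of this comparison was 0.61, and between runs of the 2 libraries it was 0.41 to 0.42 for genes at 20 FPKM or more.

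**Figure D3:**
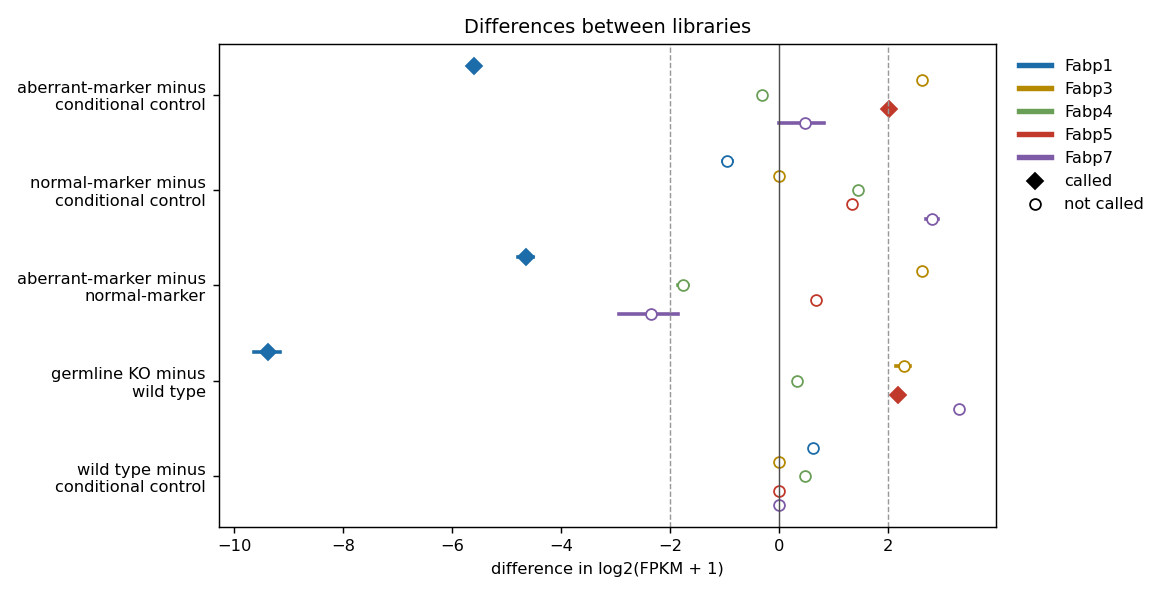
Difference of each gene between libraries in log2(FPKM + 1), for 5 comparisons. Filled diamonds passed the call and open circles did not, horizontal bars span the choices of 1 run per library, and dashed lines mark the 4-fold threshold. Fabp1 is called lower at -5.59, -4.65 and -9.39, Fabp5 is called higher at 2.02 and 2.19, and the wild type and conditional control differ by at most 0.63.

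Genes that take up, release and sense fatty acids were examined beside the carriers in lists written for this family. Of 16 genes of fatty acid uptake and activation, 13 entered the comparison. In the aberrant-marker library against the conditional control, 1 was called higher and 1 lower, with a median log2 difference of 0.14 (0 over all genes, of which 4.09% were called higher and 3.76% lower). Slc27a3, of the fatty acid transport protein family, was at 138 and 140.4 FPKM in the aberrant-marker runs and at most 0.115 FPKM in the conditional control, and Scarb1, a lipoprotein receptor, was at 7.52 FPKM on average, against 97.3 FPKM. In the germline knockout against the wild type, 0 were called higher and 1 lower, the caveolin gene Cav1 (1.34 against 42.9 FPKM). Slc27a3 was listed at 0 in both germline knockout runs. Cd36, the scavenger receptor that brings fatty acids into macrophages, was at 193 and 192 FPKM in the aberrant-marker runs, against 130.3 and 135 in the conditional control runs, and at 501 and 503 FPKM in the germline knockout runs, against 187 and 189 in the wild-type runs. Its differences of 0.53 and 1.41 were not called.

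Lipases free fatty acids from stored or imported fat, and their cofactors set how active they are. Of 12 genes, 7 entered the comparison, and 4 were called lower and 0 higher in the aberrant-marker library against the conditional control, with a list median of -2.10 (0 over all genes). Lpl, the lipoprotein lipase that frees fatty acids for uptake, was at 84.3 and 86.0 FPKM, against 527 and 532 FPKM. The lysosomal lipase Lipa was at 63.9 FPKM on average, against 371 FPKM, the triglyceride lipase Pnpla2 at 31.8 against 140.1 FPKM, and Angptl4, a secreted inhibitor of Lpl, at 8.18 against 82.4 FPKM. In the germline knockout 2 of the 7 were called lower and 0 higher (list median -0.14). These were Lpl, at 89.9 and 89.0 FPKM against 557 and 561 FPKM in the wild type, and Angptl4, at 9.92 FPKM against 154 FPKM. Lipa was not called there, at 319 FPKM in the germline knockout against 295 FPKM in the wild type. Lipe, the hormone-sensitive lipase that binds Fabp4 in adipocytes, was at 10.5 FPKM in the aberrant-marker library against 3.00 FPKM in the conditional control, and at 2.36 FPKM in the germline knockout against 0.140 FPKM in the wild type, and was not called.

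Several nuclear receptors take ligands from these carriers. Of 16 lipid nuclear receptors and coregulators, 12 entered the comparison. Against the conditional control, the aberrant-marker library had 2 called lower and 0 higher (list median -0.60, 0 over all genes), the PPAR partner Rxra, at 2.16 and 1.60 FPKM against 56.2 and 55.0 FPKM, and the retinoic acid receptor Rara, at 3.97 against 42.6 FPKM. In the germline knockout Rara alone was called lower, at 6.64 and 7.42 FPKM against 52.5 and 63.5 FPKM in the wild type (list median -0.44, 0 over all genes), while Rxra was at 22.8 and 22.3 FPKM against 49.0 and 45.8 FPKM. Pparg was at 29.8 and 32.6 FPKM in the aberrant-marker runs, against 95.3 and 95.4 FPKM in the conditional control runs, and at 76.1 and 82.4 FPKM in the germline knockout runs, against 151 and 155 FPKM in the wild-type runs, and was not called in either. In the normal-marker library it was at 144 and 150.4 FPKM, and it was called lower in the aberrant-marker library against that library. Ppard, the receptor that Fabp5 serves in other cells, was at 2.13 and 2.02 FPKM in the germline knockout runs, at 0.676 FPKM on average in the aberrant-marker library, and at most 0.0393 FPKM in a run of the controls. Ppara, the liver partner of Fabp1, was listed at 0 in every run.

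Of 20 PPAR target genes outside the family, 13 entered the comparison, and 5 were called lower and 0 higher in the aberrant-marker library against the conditional control (list median -2.02, 0 over all genes). Cidec, a lipid droplet protein, was at 0.263 and 0.269 FPKM, against 296 and 303 FPKM. The mitochondrial thiolase Acaa2 was at 19.3 against 140.2 FPKM, the transcription factor Klf10 at 27.0 against 131 FPKM and the carnitine acyltransferase Cpt1a at 16.5 against 70.6 FPKM. In the germline knockout 3 were called lower and 0 higher (list median -1.44). Cidec was listed at 0 in both germline knockout runs, against 403 and 406 FPKM in the wild-type runs, the mitochondrial carrier Ucp2 was at 364 against 1784 FPKM, and Klf10 at 25.5 against 131 FPKM. In the normal-marker library 0 genes of any of these lists were called against the conditional control, and between the 2 control libraries also 0. Over all genes, 0.935% were called higher and 0.838% lower in the first comparison, and 0.935% and 1.17% in the second. At such shares, 0 calls among so few genes say nothing particular about these lists. Fabp4, itself a PPAR target, was not called in the aberrant-marker library or the germline knockout, as was the case for most of the 13 targets compared. Its differences of -0.31 and 0.33 nevertheless stood apart from the list medians of -2.02 and -1.44.

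**Figure D4:**
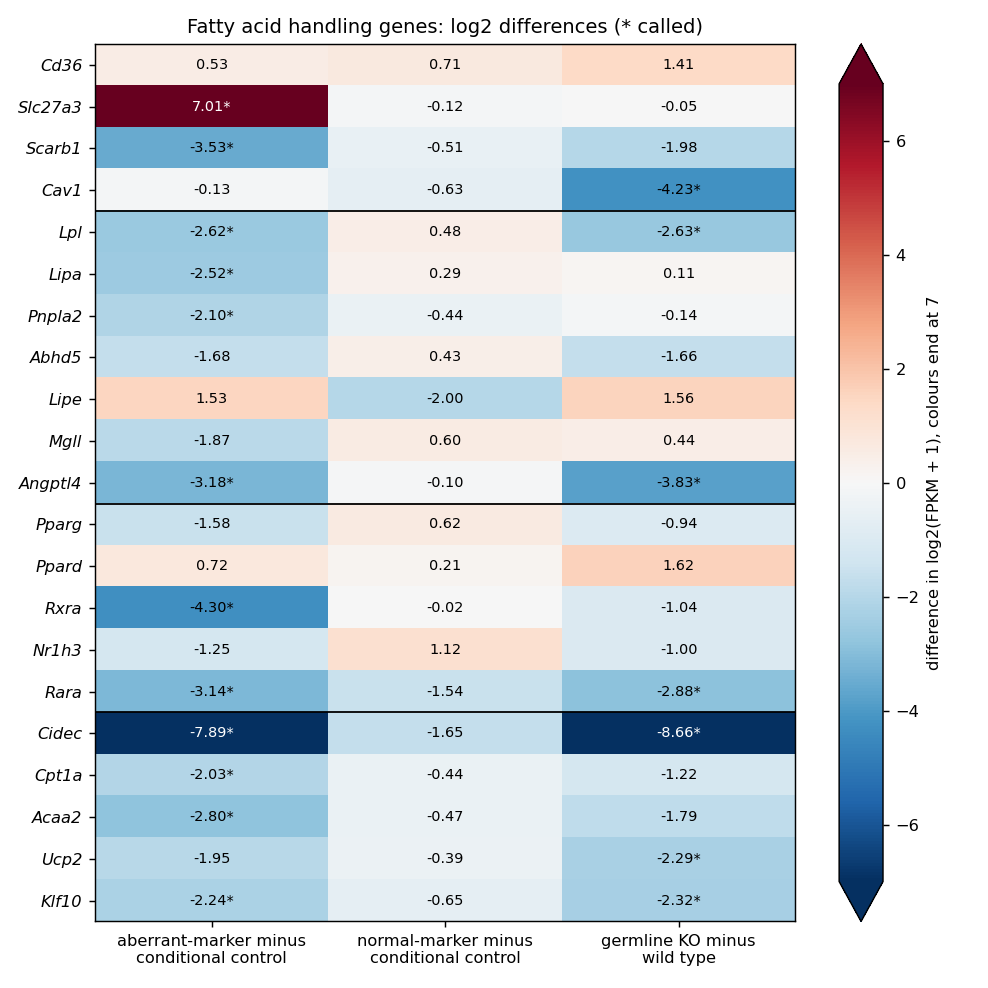
Difference in log2(FPKM + 1) for the named genes of fatty acid uptake, lipases, lipid receptors and PPAR targets (rows, with Abhd5, Mgll and Nr1h3 called between the fractions, and lists separated by black lines) in 3 comparisons (columns). Numbers are the differences, asterisks mark called genes, and colours end at 7. Cidec is the lowest in 2 columns (-7.89 and -8.66), and no gene is called in the normal-marker column.

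Between the fractions, aberrant-marker minus normal-marker, 5 of 7 lipases and cofactors were called lower (Abhd5, Angptl4, Lipa, Lpl and Mgll) and 0 higher (list median -2.47, 0.02 over all genes). Of receptors, 3 of 12 were called lower (Nr1h3, Pparg and Rxra), and of PPAR targets 3 of 13 (among them Acaa2 and Cidec), with 0 higher in both. Lpl was at 85.1 FPKM on average in the aberrant-marker library, against 740.3 FPKM in the normal-marker library, and Mgll, the monoacylglycerol lipase, at 18.4 against 107 FPKM. In uptake and activation, Slc27a3 was called higher and Scarb1 lower.

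Genes with the most similar profile were sought among 5354 genes at 20 FPKM or more in at least 1 library, by the root mean square difference over the 10 runs after centring each gene on its mean log2(FPKM + 1). For Fabp1 these were the formyl peptide receptor gene Fpr1 (0.42), the C5a receptor gene C5ar1 (0.78) and the neuropeptide gene Gal (0.80). Fpr1 had a mean of 8.74 FPKM in aberrant-marker cells and 373 in the normal-marker library, against 514 in the conditional control, and was listed at 0 in the germline knockout, against 467 FPKM in the wild type. For Fabp5 they were the lysosomal protease gene Lgmn (0.18), the tetraspanin gene Cd63 (0.24) and the ATP-gated channel gene P2rx4 (0.26). Lgmn was at 333 FPKM in the aberrant-marker library and 170.3 in the normal-marker library, against 96.2 in the conditional control, and at 377 FPKM in the germline knockout, against 72.9 in the wild type. For Fabp7 they were Sptlc1, a subunit of the enzyme that begins sphingolipid synthesis (0.47), Chil3 (0.53) and the chondroitin sulfotransferase gene Chst12 (0.54), and for Fabp3 they were the receptor gene Gpr171 (0.20), the prion protein gene Prnp (0.23) and the ubiquitin ligase gene Rnf19b (0.26). With 5 libraries, many genes can lie near any profile, and the likeness is a description.

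**Figure D5:**
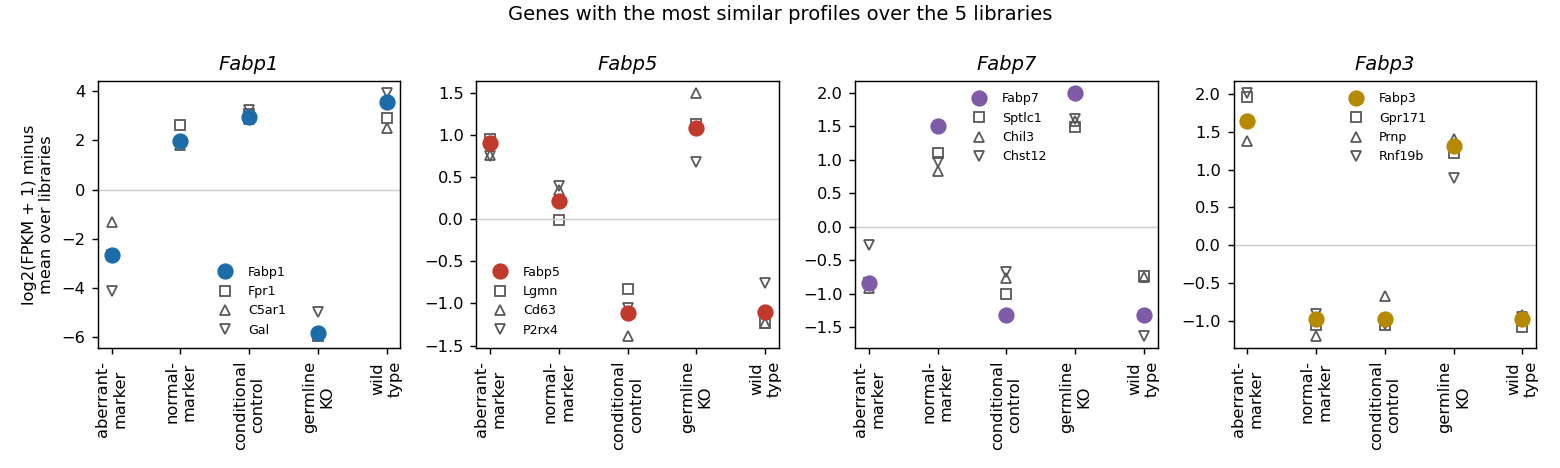
Profile of Fabp1, Fabp5, Fabp7 and Fabp3 (filled) and of the 3 genes nearest to each (open symbols) over the 5 libraries, as mean log2(FPKM + 1) minus its mean over the libraries. Fpr1 follows Fabp1 with a difference of 0.42 and Lgmn follows Fabp5 with a difference of 0.18.

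How reads of near-identical sequences were divided bears on 2 members. In GENCODE M21, no 50-base stretch of the Fabp1, Fabp4 or Fabp7 transcripts occurs in another gene, and no member shares such a stretch with another member, Fabp1 and Fabp5 included. Of the 50-base stretches of Fabp5, 21.1% also occur in 5 other genes, which are not analysed here. Reads from those copies and from Fabp5 cannot be told apart in that portion. Of the stretches of Fabp3, 37.3% occur in 3 other genes, and 4.13% occur in Zcchc17, on its opposite strand, 1 of the 3. The libraries do not mark strand. Zcchc17 was at 1.53 and 2.52 FPKM in the aberrant-marker runs, against 28.9 and 31.4 FPKM in the conditional control runs and at 12.8 and 14.4 FPKM in the germline knockout runs, against 23.1 and 21.8 FPKM in the wild-type runs. In the normal-marker runs, where Fabp3 was listed at 0, it was at 11.0 and 10.8 FPKM. Levels of the other 2 genes are not analysed here, and the part of shared reads in the Fabp3 values was not tested.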

How the data were processed

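The deposited table holds values for 45913 RefSeq transcripts in 10 columns, and all 10 matched a sample title. Its header names no unit: the values made by the authors were taken as FPKM, which eXpress writes. Bowtie 1.1.2 and eXpress 1.5.1 are named without a role, per the submitters' processing notes; the build and any filter are not given in the sources used. Per the labels' protocols, cDNA came from 100 pg of RNA with 18 PCR cycles. No read counts were used, so no counting interval is given.

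Transcript values were added up per Entrez gene with pandas 2.3.3 and numpy 2.4.6 on Python 3.11.15. The comparison took genes that reached 1 FPKM in 2 or more columns, with a pseudocount of 1 FPKM before the log2, which sets the size of a difference from a library listed at or near 0. Of the 5 members all entered, Fabp3 and Fabp7 through the knockout libraries alone. Depth was read from the commonest product of low values and GENCODE M21 transcript length for genes with 1 transcript over 1500 bases. Promoters were in the RefSeq table for 3 members.

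The members, the gene lists and the call rule were chosen with earlier results of these data known, and the motifs after the values were seen. Genes named are the 5 members, called genes of the lists (all where a list had at most 5, except genes not reported here), Pparg, Ppara, Ppard, Cd36, Lpl and Lipe, and the 3 most alike genes for members that ranged over at least 2 log2 units. Alternatives were another pseudocount, filter, fold, floor, scaling, transcript choice, control library, and leaving out each run.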

Additional observations from a re-analysis of the deposited data

Results flagged for a closer look

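The difference between a knockout fraction of the conditional line and its control was opposite in sign, in every choice of runs, to that between the germline knockout and the wild type for 13 of 52 genes examined, the carriers and the other genes described singly. The 52 genes were picked for other reasons, and a gene could enter through either fraction. No share over all genes stands beside this count, so it does not say whether 13 is many or few. These differences of differences were not tested, since each group is 1 library. Among the carriers this held for Fabp4, whose aberrant-marker difference of -0.31 and germline difference of 0.33 were -0.63 apart. Against the same germline differences, the aberrant-marker differences of Lipa and Mgll lay -2.63 and -2.31 apart. The normal-marker differences of Lpl, Nr1h3, Abhd5 and Pparg lay 3.11, 2.13, 2.09 and 1.56 apart from the germline ones, higher in the normal-marker library and lower in the germline knockout. Lipe, a gene of few reads, lay -3.56 apart, listed at 0 in the normal-marker library. Among cell type markers, the aberrant-marker differences of Mbp, Chil3 and Itgax lay 4.24, -2.47 and -1.36 from the germline ones, and the normal-marker difference of Car4 lay 3.38 from it. Prnp, which resembled Fabp3, lay -2.85 apart, lower in the normal-marker library and higher in the germline knockout.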

How the results depend on the processing

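Of 589 recomputed values, 528 stayed within the spread between runs or, for counts, within 1.5 times, 61 moved further and 0 called values changed sign. Many could hardly move, because the filter, fold and floor do not enter a log2 difference. Leaving out 1 of 2 runs moves a difference by less than the spread allowed. Calls also stay the same without the filter, because the floor of 20 FPKM implies it. The 528 are thus no measure of stability. A carrier gained or lost its call in 9 of the 589, given below or beside the result. Fabp1 was called lower under every alternative in the aberrant-marker comparisons and in the germline knockout, and Fabp5 was called higher in the germline knockout under every alternative. Shares of the family sum moved by less than the spread between runs, but their alternatives could hardly do otherwise. Scaling a column nearly cancels in a share, and leaving out 1 of 2 runs stays within the spread allowed. The transcript choice touches only Fabp5, where 1 transcript held at least 98.7%.

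The number of the 5 carriers called in the aberrant-marker library against the conditional control was 2, and 1 with columns scaled to the same total and with the wild type as the control, where Fabp5 was lost. In the normal-marker library it was 0, and 2 at the 2-fold threshold (Fabp4 and Fabp5) and 1 with a floor of 5 FPKM (Fabp7). Between the fractions it was 1, and 2 under each of these alternatives (adding Fabp4 or Fabp3). List genes called at the 2-fold threshold were 22 instead of 13 for the aberrant-marker library, 4 instead of 0 for the normal-marker library and 15 instead of 7 for the germline knockout. Over all 11336 genes the calls rose as well, to 2010 from 890, to 837 from 201 and to 1713 from 691. With the highest transcript only, and with the wild type as the control, 1 list gene was called in the normal-marker library, and with a floor of 5 FPKM 2 were called between the controls. Calls over all genes ranged from 791 to 2180 (890 as reported) for the aberrant-marker library, 198 to 1064 (201) for the normal-marker library, 783 to 2165 (825) between the fractions, 607 to 1926 (691) for the germline knockout and 226 to 1198 (239) between the controls, highest with the floor of 5 FPKM. Fabp3 and Fabp7 are limited by depth, at about 24 to 62 fragments per run where present.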
